A study of Mus musculus with 16 samples.

Results

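Proline and serine synthesis was examined in the cerebellum of Npc1-/- mice through 10 genes: Pycr1 and Aldh18a1 of proline synthesis, Phgdh, Psat1 and Psph of serine synthesis, Shmt2 and Mthfd2 of mitochondrial one-carbon metabolism, the asparagine synthetase Asns, and the stress regulators Trib3 and Atf4. Pycr1 was taken because it was among the 6 genes of 17984 that passed the threshold with a lower level in Npc1-/- mice on these same arrays. It was thus selected on the genotype difference measured here, and its values are a description that carries no test. The other 9 genes were chosen by function, with earlier results of these arrays known, to ask whether the lower level of Pycr1 was shared by other genes of amino acid synthesis. All 10 were found on the Agilent array, by 14 of its 41174 gene probes: 3 for Phgdh, 2 each for Psph and Trib3, and 1 for each of the others. Every one of the 10 passed the filter on dim probes.

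Cerebella came from 8 mice aged 3 weeks on a BALB/c background, 4 Npc1-/- and 4 wild type (Npc1+/+), bred from heterozygous carriers of the allele of strain BALB/cNctr-Npc1m1N/J. Npc1 encodes a lysosomal membrane protein that exports cholesterol, Niemann-Pick disease type C follows from its loss, and the mutation is carried in every cell of the animal. Total RNA (500 ng) was labelled with Cy3 and hybridised to 1 Agilent array per replicate, 4 per genotype. No treatment was given per the labels, which do not state the sex of the mice. Another 8 arrays of an Illumina platform were not analysed here, because their probe numbers are paired with no gene names.

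Cells make proline from glutamate: Aldh18a1 forms pyrroline carboxylate in the mitochondrion and reductases such as Pycr1 and Pycr3 reduce it to proline, while Prodh runs the reverse step by oxidising proline. Serine is made from a glycolytic intermediate by Phgdh, Psat1 and Psph in that order, and Shmt2 and Mthfd2 carry its side-chain carbon into the mitochondrial folate cycle. ATF4 is the transcription factor of the integrated stress response. It is made when phosphorylation of eIF2 slows general translation, and it is known to activate genes of all these steps, together with Asns and its own feedback inhibitor Trib3. In the brain, serine made by astrocytes also feeds the synthesis of glycine, D-serine and sphingolipids.

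The sequence that ATF4 is known for in such genes is the amino acid response element, a short motif written here as TGATGNAA, where N is any base. Promoter windows of the 10 genes were taken from RefSeq on GRCm38.p6, each from 250 bases before to 50 bases after the annotated start, and searched on both strands; all 10 matched, with 11 windows because Psat1 has 2. The motif was in windows of 3 of the 10 genes, Pycr1, Asns and Trib3, against 3.97% of all 32851 windows (1304). The stretches before the start of Pycr1 and Asns are shown because they carry the same motif upstream of the start while the genes had unlike values on these arrays. Both are 5′ to 3′ on the strand of the gene, with the motif in capitals; Pycr1 lies at chr11:120643749-120643998 and Asns at chr6:7693210-7693459, both on the minus strand of GRCm38.p6.
Pycr1: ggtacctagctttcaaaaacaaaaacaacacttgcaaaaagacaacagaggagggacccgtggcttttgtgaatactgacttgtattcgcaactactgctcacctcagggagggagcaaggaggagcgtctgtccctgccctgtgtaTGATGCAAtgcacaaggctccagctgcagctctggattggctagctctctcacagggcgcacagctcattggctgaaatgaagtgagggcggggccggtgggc
Asns: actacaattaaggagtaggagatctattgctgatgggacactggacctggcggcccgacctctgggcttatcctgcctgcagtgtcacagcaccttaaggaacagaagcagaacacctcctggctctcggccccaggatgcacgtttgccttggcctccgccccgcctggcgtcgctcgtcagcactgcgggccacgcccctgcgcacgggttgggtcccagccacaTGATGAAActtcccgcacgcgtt
The motif of Pycr1 reads TGATGCAA and starts 103 bases before the start, and that of Asns reads TGATGAAA and starts 23 bases before it. The 8 letters of Pycr1 were in 0.895% of all windows (294). In Trib3 the motif was on the opposite strand, read on the gene's strand as TTACATCA, at base 15 after the start. These are matches of letters, not measured sites, and for the other 7 genes the result says only that these letters are not in the window searched.

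Between 22193 and 28134 probes were well above background per array, the fewest on wild-type replicate 2, no gene probe was saturated, and the arrays correlated pairwise from 0.9604 to 0.9901 over probes. Signals below are log2 of the processed signal minus the 75th percentile of the array, so they compare arrays for 1 probe and not genes with each other. Npc1 itself, the check of the labels, was 1.99 ± 0.104 log2 units (SE) lower in Npc1-/- mice, and the genotypes did not overlap (limma adjusted p = 0.00045). All 8 cerebellar neuron markers, such as Gabra6 and Pcp2, were tested; their summed signal was 273 to 327 on Npc1-/- arrays and 306 to 409 on wild-type arrays, as multiples of the 75th percentile. The number of arrays, 4 per genotype, limits the precision, and the p-values measure the spread between these arrays.

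Pycr1 was lower on every Npc1-/- array than on every wild-type array. Its signal was -5.35, -5.38, -4.88 and -5.03 on Npc1-/- replicates 1 to 4, and -4.19, -4.28, -4.42 and -4.30 on wild-type replicates 1 to 4. Npc1-/- replicates 1 and 2 were the lowest, and wild-type replicate 1 was the highest. The means were -5.16 ± 0.248 (SD, n = 4) and -4.30 ± 0.0931 (SD, n = 4), a log2 difference of -0.86 ± 0.133 (SE, 95% interval -1.16 to -0.555), or 1.81-fold lower. Over all genes tested, 0.2% (36 genes) had a difference at or below this one, and 1.95% had all 4 Npc1-/- arrays below all 4 wild-type arrays. Within the 3 slides that held both genotypes the difference was -0.964, -0.907 and -0.682, each against 1 wild-type array. For the value of -0.907 that array was wild-type replicate 2, on which Pycr1 was not well above background. In whole cerebellum, fewer cells of a type and less RNA per cell cannot be told apart.

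Pycr1 was a dim probe, at the 8.53rd percentile of mean signal among the genes tested. The probe lies at chr11:120748910-120748969 in mm7, the build of the files; annotation of that build was not used here, so the exon under it is not given. Background-subtracted intensities were 19.6, 21.1, 34.4 and 28.8 on Npc1-/- replicates 1 to 4 and 63.6, 38.8, 39.8 and 48.0 on wild-type replicates 1 to 4. Of the 4 wild-type arrays 3 measured it well above background. Wild-type replicate 2 did not, its value of -4.28 lying below the lowest signal called well above background there, -3.82. On the other 7 arrays Pycr1 was 0.334 to 1.74 log2 units above that limit, with Npc1-/- replicates 2 and 4 nearest to it.

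**Figure D1:**
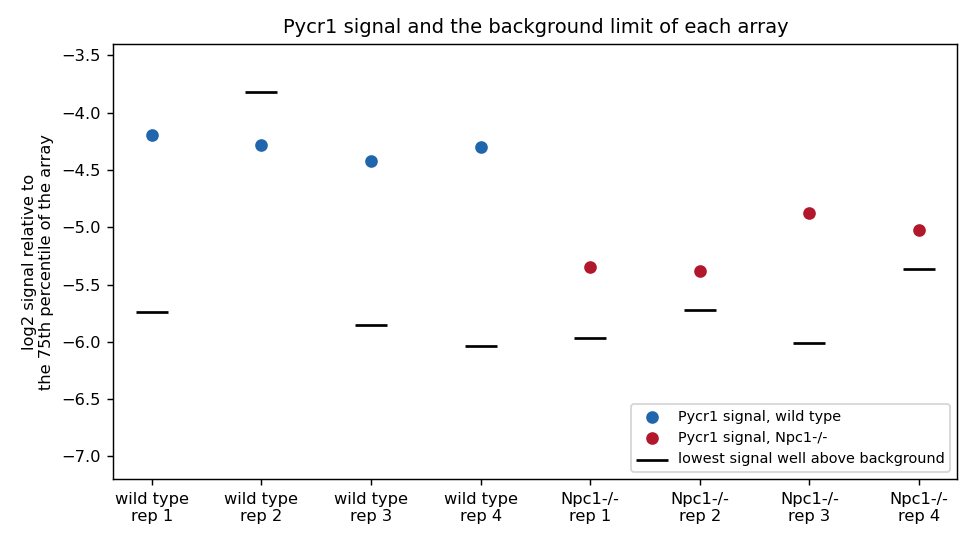
Log2 signal of Pycr1 relative to the 75th percentile of each array (points, blue for wild type and red for Npc1-/-) and the lowest signal that was called well above background on that array (black bars), for the 8 arrays. Pycr1 lies above the bar on 7 arrays and below it on wild-type replicate 2, and the 4 red points lie below the 4 blue points.

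The Pycr1 difference was -0.35 after normexp background correction with an offset of 50 and quantile normalization, where Pycr1 did not pass the threshold; the parts of this setting were not separated. Pycr1 also did not pass with the slide (-0.857) or scan day (-0.854) as a block, or without the filter on dim probes (-0.86). Of the fits that left out 1 array, only the one without Npc1-/- replicate 3 (-0.954) passed. The others ran from -0.904 to -0.785.

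None of the other 9 genes passed the threshold (limma, Benjamini-Hochberg adjusted p under 0.05), where 0.767% of all genes did, 0.734% higher and 0.0334% lower. None had an unadjusted p under 0.05 either. The share of all genes at that p is not given, so counts at it, here and for the lists below, have no background beside them. In each of the 9 genes the arrays of the genotypes overlapped. Their log2 differences ran from -0.27 to 0.00014 with a median of -0.124, against a median of -0.015 over all genes. Of the 9, 8 had a negative value, as did 53.4% of all genes tested. The number was 6 when arrays were scaled on probes above background on all arrays. That scaling also moved the median of all genes to 0.0373, and the median of the 9 was then -0.0713. All 9 had a 95% interval wholly above the Pycr1 difference of -0.86, and 1 interval, that of Trib3, overlapped the interval of Pycr1. These comparisons with Pycr1 are descriptive, since it was taken for being low.

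**Figure D2:**
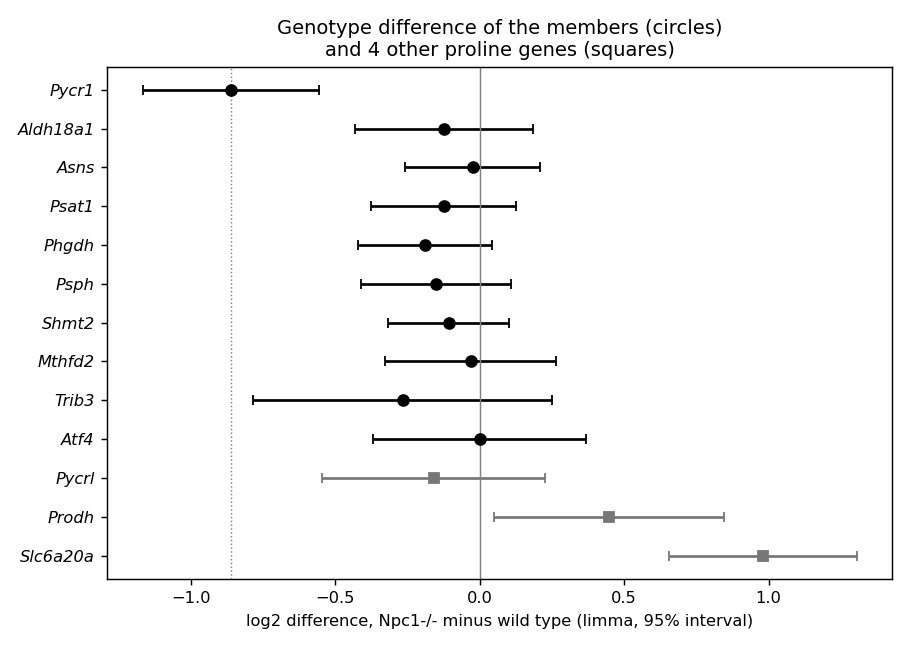
Log2 difference between Npc1-/- and wild-type arrays with its 95% interval for the 10 genes (black circles) and for Pycr3 (drawn as Pycrl), Prodh and Slc6a20a (grey squares); the dotted line marks Pycr1. The intervals of the other 9 genes all include 0, and they lie above the dotted line.

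In proline synthesis, Aldh18a1, the enzyme upstream of Pycr1, had signals of -1.35, -1.36, -1.66 and -1.73 on the Npc1-/- arrays and -1.65, -1.27, -1.25 and -1.42 on the wild-type arrays. The highest and lowest arrays of the groups interleave, and Npc1-/- replicates 3 and 4 were lowest. The log2 difference was -0.124 ± 0.135 (SE, 95% interval -0.433 to 0.186, limma adjusted p = 0.782), but 0.0141 with wild-type replicates 2 and 3 left out. Pycr3, the cytosolic reductase (Pycrl in the reference table), had a difference of -0.159 ± 0.169 (SE, limma adjusted p = 0.777), a 95% interval of -0.544 to 0.226, and -0.28 for its other probe.

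Prodh, which breaks proline down, had higher values in Npc1-/- mice but did not pass. The signals were 1.81, 1.59, 1.23 and 1.69 on Npc1-/- arrays and 1.05, 1.25, 1.44 and 0.79 on wild-type arrays. Npc1-/- replicate 3 lay among the wild-type values. The fitted log2 difference was 0.45 ± 0.174 (SE, 95% interval 0.049 to 0.846, limma adjusted p = 0.59).

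Serine synthesis was measured by 6 probes of Phgdh, Psat1 and Psph, some of which share bases. All 6 had negative differences, as did 53.4% of all genes tested. None passed the threshold over the 27167 probes tested, of which 0.523% passed. Phgdh, the entry enzyme, had 3.10, 2.97, 3.19 and 3.30 on Npc1-/- arrays and 3.22, 3.39, 3.42 and 3.30 on wild-type arrays. Npc1-/- replicate 4 alone reached the wild-type range. The log2 difference of its brightest probe was -0.19 ± 0.102 (SE, 95% interval -0.422 to 0.0421, limma adjusted p = 0.752). The other Phgdh probes had -0.184 and -0.26. The first of them shares the 17 bases gagaggggatcgcagaa with the brightest probe, so these readings are not independent.

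Psat1, the aminotransferase of the next step, had 1.66, 1.64, 1.63 and 1.89 on Npc1-/- arrays against 1.72, 2.02, 1.71 and 1.87 in wild type. Npc1-/- replicates 1 to 3 lay together below all wild-type arrays, and replicate 4 stood apart within the wild-type range. This gave a log2 difference of -0.125 ± 0.11 (SE, 95% interval -0.375 to 0.126, limma adjusted p = 0.753). Psph, the phosphatase of the last step, had 1.199, 1.284, 1.374 and 1.287 against 1.505, 1.182, 1.645 and 1.416, with wild-type replicate 2 lowest of all 8. Its difference was -0.151 ± 0.114 (SE, 95% interval -0.411 to 0.109, limma adjusted p = 0.753), and the other Psph probe, which shares 40 of 60 bases with the first, also had -0.15.

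The mitochondrial one-carbon enzymes were close between genotypes. Shmt2, which splits serine into glycine and a folate-bound carbon, had 0.60, 0.60, 0.71 and 0.67 on Npc1-/- arrays and 0.62, 0.69, 0.89 and 0.81 on wild-type arrays. Wild-type replicates 3 and 4 lay above the Npc1-/- range and the other wild-type arrays within it. The log2 difference was -0.108 ± 0.092 (SE, 95% interval -0.318 to 0.103, limma adjusted p = 0.753). Mthfd2, the dehydrogenase and cyclohydrolase that follows, had -2.68, -2.48, -2.96 and -3.01 against -2.71, -2.79, -2.76 and -2.74. Here the Npc1-/- arrays lay on both sides of wild-type arrays that differed by little, with an SD of 0.25 (n = 4) against 0.034 (n = 4). The fitted log2 difference was -0.031 ± 0.129 (SE, 95% interval -0.326 to 0.264, limma adjusted p = 0.945). It was 0.0211 when arrays were scaled on probes above background on all arrays, where the median of all genes was 0.0373.

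Asns, whose promoter stretch is shown above, had 3.97, 3.73, 3.84 and 4.08 on Npc1-/- arrays and 3.90, 3.97, 4.01 and 3.85 on wild-type arrays. The wild-type values lay inside the Npc1-/- range. This gave a log2 difference of -0.024 ± 0.102 (SE, 95% interval -0.257 to 0.209, limma adjusted p = 0.947). It was positive under other scalings, 0.0516 with quantile normalization and 0.0281 with scaling on probes above background on all arrays. With the latter scaling the median of all genes was 0.0373.

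Trib3 and Atf4, the regulators, were likewise not past the threshold. Trib3, a pseudokinase that restrains ATF4, had -3.71, -3.84, -3.39 and -3.10 on Npc1-/- arrays and -3.66, -2.73, -3.36 and -3.21 on wild-type arrays. Wild-type replicate 2 was the highest and the other wild-type arrays lay within the Npc1-/- range. The log2 difference was -0.27 ± 0.227 (SE, 95% interval -0.785 to 0.252, limma adjusted p = 0.753), the widest interval of the 9, and the other probe, above background on 3 wild-type arrays, had 0.0912. Without wild-type replicate 2 the difference of Trib3 was -0.0974. Atf4 had 1.102, 1.256, 1.039 and 1.314 on Npc1-/- arrays and 0.844, 1.423 and 1.267 on wild-type replicates 2 to 4; the spot of wild-type replicate 1 carried an outlier flag and was left out. Its log2 difference was 0.00014 ± 0.158 (SE, 95% interval -0.369 to 0.370, limma adjusted p = 1.0), and it was -0.153 with the flagged spot kept. ATF4 is controlled largely through translation, which these arrays do not measure.

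**Figure D3:**
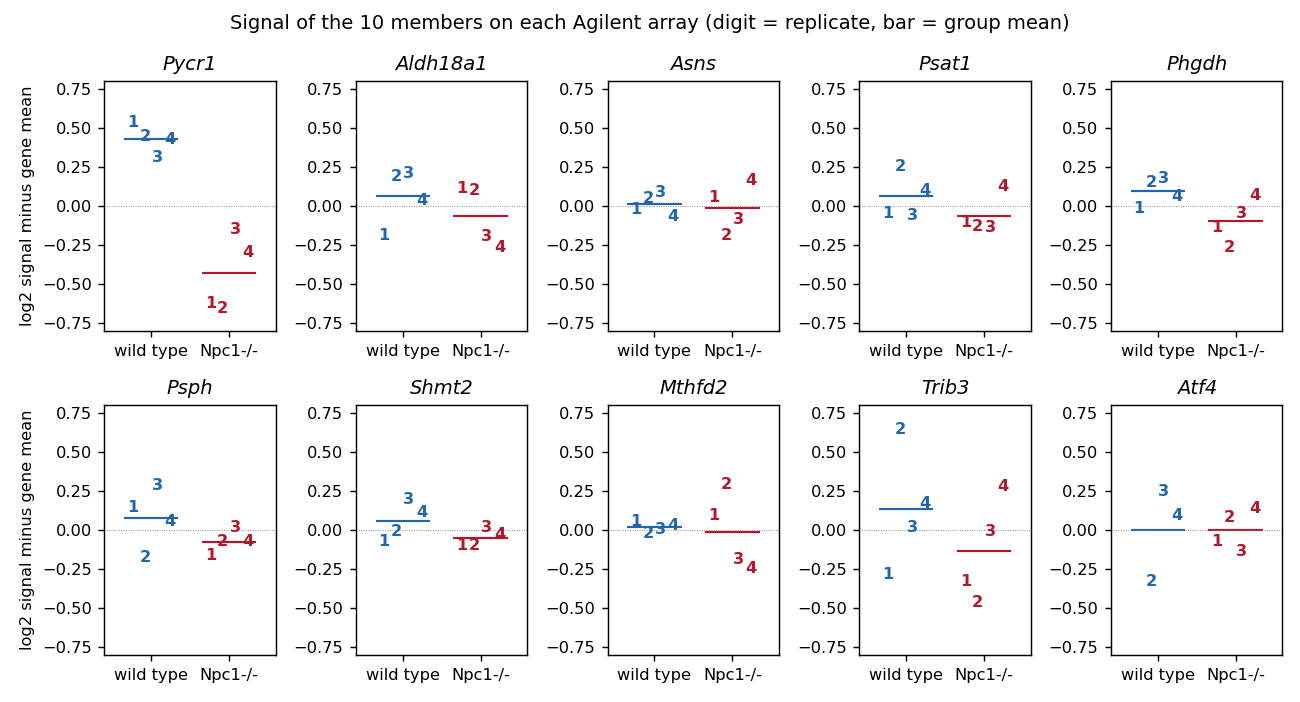
Log2 signal of each of the 10 genes on each array, centred on the gene's mean over its arrays; digits are replicate numbers, blue for wild type and red for Npc1-/-, and bars are group means. In Pycr1 the digits of the genotypes do not overlap, in the other 9 genes they do, and Atf4 lacks wild-type replicate 1.

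Taken over the 9 genes, the arrays of the genotypes overlapped. The median of the 9 centred signals was -0.100, -0.0976, -0.0838 and 0.0655 on Npc1-/- replicates 1 to 4 and -0.0354, 0.0473, 0.180 and 0.064 on wild-type replicates 1 to 4. Npc1-/- replicate 4 lay at the level of wild-type replicate 4, and wild-type replicate 1 lay below 0. Wild-type replicate 3 was the highest array for 5 of the 9 genes. Without wild-type replicate 3 the median log2 difference of the 9 was -0.0739 in place of -0.124, and without wild-type replicates 2 and 3 it was -0.0735. By slide, where both genotypes were present, that median was -0.275, -0.0546 and -0.0432.

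The wider proline and ornithine pathway held 16 other genes, all tested, of which 1 rose, none fell and 15 did not pass. Over all genes 0.734% rose and 0.0334% fell. The median log2 difference of the 16 was 0.114. The gene that rose was Slc6a20a, a sodium-dependent transporter of proline and other imino acids. Its signals were 0.90, 0.71, 0.45 and 0.40 on Npc1-/- arrays and -0.41, -0.52, -0.13 and -0.40 on wild-type arrays. The groups did not overlap, as in 4.92% of all genes in either direction. The fitted log2 difference was 0.98 ± 0.142 (SE, 1.97-fold higher, limma adjusted p = 0.0206); it kept its sign in all 20 alternatives and its call in 11. The call was lost with the slide (0.979, limma adjusted p = 0.164), scan day (0.993, 0.0545) or replicate number (0.981, 0.164) as a block, with dim probes unfiltered (0.981, 0.0866), and with wild-type replicates 2 and 3 both left out (1.02, 0.0786). The 8 markers of meninges and fibroblasts, cells in which this transporter is known, had a summed signal of 19.5 to 25.7 on Npc1-/- arrays and 15.8 to 17.1 on wild-type arrays; none passed, and their part in this result was not tested. Call losses with 1 array left out came without Npc1-/- replicates 1 or 2 or wild-type replicates 1 or 4, with a difference of 0.886, 0.948, 0.964 and 0.97. Arg2, a mitochondrial arginase that yields ornithine, had 0.399 ± 0.139 (SE, limma adjusted p = 0.496).

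Around serine, 22 of 25 genes of the serine, glycine and folate pathway were tested and none passed, with 1 at an unadjusted p under 0.05 and a median log2 difference of -0.0523. That gene was Shmt1, the cytosolic counterpart of Shmt2, at -0.371 ± 0.159 (SE, limma adjusted p = 0.663). Sdsl and Mthfd1l, a serine dehydratase relative and a mitochondrial formate-producing enzyme, had 0.349 and 0.326. Of 16 genes of other amino acid synthesis none passed, with 2 at an unadjusted p under 0.05 and a median of 0.0344. Neither count at that p has the share of all genes beside it. Among the largest differences were those of Aspa (-0.51, limma adjusted p = 0.226), which splits N-acetylaspartate in oligodendrocytes and does not make an amino acid anew and the arginine-synthesis enzyme Ass1 (0.496, limma adjusted p = 0.531).

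Other genes known to follow ATF4 did not pass either. Of 28 partners and stress targets 26 were tested, with a median log2 difference of 0.0171. An unadjusted p under 0.05 was found for 5 of them, a count without the share of all genes beside it. Atf3, a stress-induced transcription factor, had -1.76, -1.95, -2.02 and -1.84 on Npc1-/- arrays and -2.36, -2.62, -2.76 and -3.08 on wild-type arrays. Its groups did not overlap, as in 4.92% of all genes in either direction, and its log2 difference was 0.813 ± 0.153 (SE, limma adjusted p = 0.0649). The heme oxygenase Hmox1 had 0.59 (limma adjusted p = 0.12) and the stress cytokine Gdf15 had 0.817 (limma adjusted p = 0.403). Markers of microglia and macrophages were far higher in the same animals: 5 of 10 rose, against 0.734% of all genes, and the median log2 difference was 1.02. Their summed signal was 23.6 to 29.5 on Npc1-/- arrays and 5.60 to 8.02 on wild-type arrays. Their part in the values of Atf3 and Hmox1 was not tested.

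Among 11 amino acid transporters under ATF4, 10 were tested and none passed, with a median of 0.0707. At an unadjusted p under 0.05 there were 3, again a count without the share of all genes beside it. Those 3 were the cationic amino acid carrier Slc7a3 (0.668, limma adjusted p = 0.389), the cystine carrier Slc7a11 (0.331) and the neutral amino acid carrier Slc1a5 (0.305). All 19 aminoacyl-tRNA synthetases, which charge tRNAs and include known ATF4 targets, were tested, and none passed or had an unadjusted p under 0.05. Of these, 16 had negative differences, as did 53.4% of all genes, and the median was -0.0816. The largest differences were those of Tars (-0.193), Dars (-0.143) and Farsb (-0.141). Of 12 genes of the eIF2 kinases and initiation none passed, with a median of -0.0771. The interferon-induced kinase Eif2ak2 had 0.399 (limma adjusted p = 0.456), the GCN2 inhibitor Impact had 0.286 and the eIF2 subunit Eif2s2 had -0.251.

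**Figure D4:**
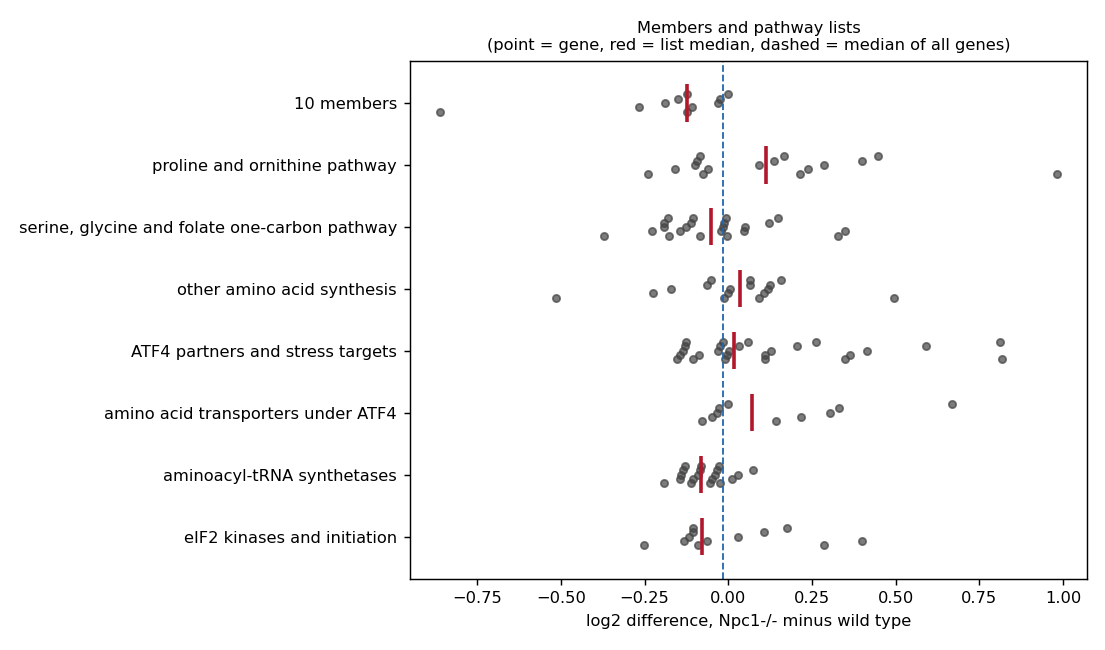
Log2 difference, Npc1-/- minus wild type, of each tested gene (grey points) of the 10 genes and of 7 related gene lists, with the median of each list in red and the median of all genes tested, -0.015, as a dashed line. List medians lie between -0.124 and 0.114, Pycr1 is the lowest point, and Slc6a20a is the highest.

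The 5 named genes whose signals ran most like those of Pycr1 were not among the other 9 genes. Likeness was measured as the root mean square difference of centred log2 signals over the 8 arrays, where 0 is the same profile. The genotype difference stays in this measure, so genes with a difference near that of Pycr1 rank near it. The ranks thus partly restate the contrast on which Pycr1 was taken, and they are a description. The nearest named genes were Elovl7 (0.127), a fatty acid elongase, Ninj2 (0.170), an adhesion molecule, Barx2 (0.178), a homeobox transcription factor, S1pr5 (0.186), a sphingosine phosphate receptor, and Tspan2 (0.186), a tetraspanin. Elovl7 had 0.79, 0.88, 1.32 and 1.25 on Npc1-/- arrays and 1.70, 1.85, 1.54 and 1.79 on wild-type arrays. All of the 5 were lower on every Npc1-/- array than on every wild-type array, as were 1.95% of all genes. Likeness to Pycr1, whose groups do not overlap, favours such genes, so this is no separate result. None of the 5 passed the threshold, from Barx2 (-0.674, limma adjusted p = 0.0709) to Tspan2 (-0.519, limma adjusted p = 0.238). Of the other 9 genes Phgdh came nearest, at rank 623, then Psph (1888), Trib3 (2139), Psat1 (2161), Shmt2 (2555), Asns (6034), Aldh18a1 (8530), Atf4 (9713) and Mthfd2 (10407).

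Markers of myelinating oligodendrocytes moved in the same direction as Pycr1. All 10 had negative differences, as did 53.4% of all genes tested. In 7 of them every Npc1-/- array lay below every wild-type array, as in 1.95% of all genes. None of the 10 passed, and their median was -0.59. Their summed signal was 250.01 to 304 on Npc1-/- arrays and 332 to 437 on wild-type arrays. By the likeness measure 8 of the 10 stood within the nearest 150 of 17984 genes to Pycr1, among them Cnp at rank 142. Mbp (737) and Mobp (2200) did not. This count was made after the values were seen. The measure ranks genes with a similar genotype difference near Pycr1, so the count partly restates that difference. The median of the 10 centred signals was -0.423, -0.363, -0.356 and -0.0517 on Npc1-/- replicates 1 to 4 and 0.0426, 0.575, 0.206 and 0.320 on wild-type replicates 1 to 4. On single arrays the order differed: wild-type replicate 1 was the highest for Pycr1 and the lowest wild-type array for these markers. Cerebellar neuron markers had a median log2 difference of -0.278 (8 of 8 negative, 0 passed). For astrocytes and Bergmann glia, where Phgdh is known to be high, the median was -0.0207 (0 of 12 passed). Those 12 markers went both ways, 6 negative and 6 positive, from -0.59 for Fabp7 to 1.08 for Gfap. The part of these cell types in the values of Pycr1 and of the other 9 genes was not tested.

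**Figure D5:**
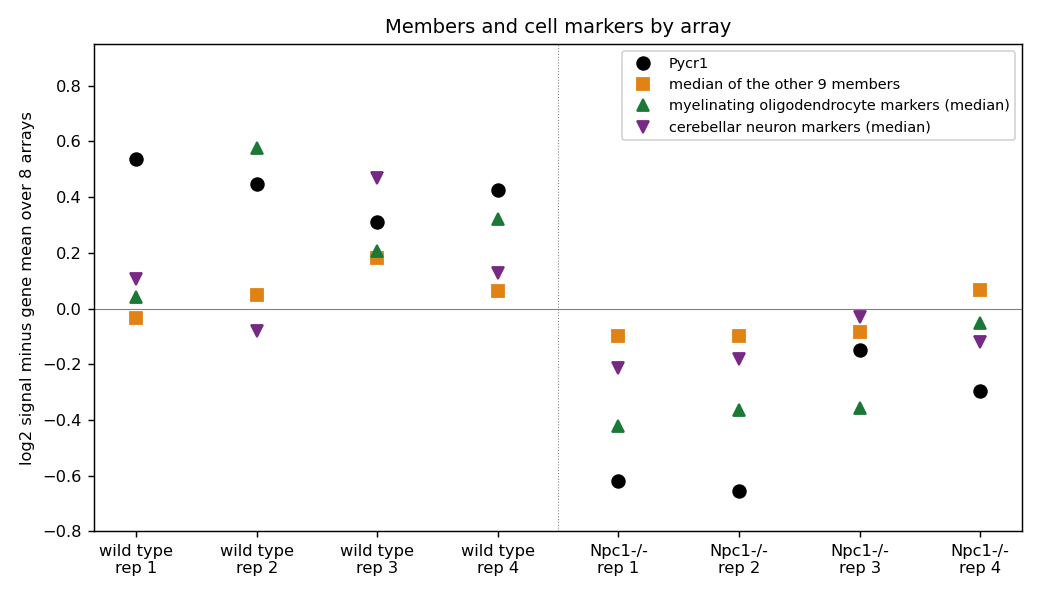
Centred log2 signal on each of the 8 arrays for Pycr1 (black circles), the median of the other 9 genes (orange squares), and the medians of the myelinating oligodendrocyte markers (green triangles) and the cerebellar neuron markers (purple triangles). Pycr1 runs from -5.38 to -4.19 before centring and parts the genotypes, whereas the median of the other 9 genes stays between -0.100 and 0.180 and overlaps.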

How the data were processed

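The authors deposited scanner intensity values made with Agilent Feature Extraction 9.5 (submitters' processing notes). Per the file headers, background had been subtracted and spatial trends removed on each array, with no scaling across arrays, and each spot carries flags for outliers, saturation and signal well above background.

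Spots were taken as log2 of the processed signal minus each array's 75th percentile. Control spots were left out, outlier-flagged spots were set to missing (74 to 115 per array) and repeated probes were averaged. A probe was kept if well above background on 4 or more of the 8 arrays (27167), and the brightest probe stood for each gene (17984 genes). Symbols followed a RefSeq table of GRCm38.p6, through accessions (22951 probes), symbols (6659) or synonyms (3109); 8455 probes kept the file's name.

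The genotype comparison used lmFit and eBayes of limma 3.58.1 (R 4.3.3), two-sided, with Benjamini-Hochberg adjustment over all genes and a threshold of 0.05; the fit was first tested on simulated data. Differences are Npc1-/- minus wild type, with 95% intervals. The 10 genes, the pathway and marker lists and the tests were chosen with earlier results of these data known. Named genes were the 10 members, Npc1, Pycr3, Prodh, per pathway list those past the threshold and the 3 largest differences, and the 5 genes nearest to Pycr1 by signal; a few that this takes in are left out. Groups and replicate numbers came from the sample titles. Same-numbered arrays did not deviate together (correlations 0.149, 0.0383, -0.445 and 0.202), so numbers were not treated as pairs. Alternatives covered background correction, scaling, filters, probe choice, flags, slide, scan day, replicate block, array weights and leaving out arrays. Plots were drawn with matplotlib 3.10.9.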

Additional observations from a re-analysis of the deposited data

Results flagged for a closer look

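Psat1 on Npc1-/- replicate 4 stood apart from the other arrays of its genotype, with a signal of 1.89 against 1.63 to 1.66 on the other 3. The gap was 0.884 of the whole range of the group, above the 95% limit of Dixon's test for a group of this size. In all, 19 groups of 4 arrays were examined in this way, and chance alone flags about 1 in 20.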

How the results depend on the processing

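The low signal of Pycr1 limits its value, and 4 arrays per genotype limit every interval. Pycr1 stayed lower in all 19 alternatives that tested it and passed the threshold in 6; it was not tested among genes above background on all 8 arrays. It missed the threshold after normexp correction with quantile normalization (-0.35), without a filter (-0.86), with the slide (-0.857) or scan day (-0.854) as a block, and without wild-type replicates 2 and 3 (-0.911), an alternative chosen after seeing the data. Without single arrays it ran from -0.954 to -0.785. So 0 members were called in 14 of 20 alternatives (0 to 1 without single arrays). None of the other 9 genes was called in any setting that tested it, of 21 in all. Atf4, too, was not tested among genes above background on all 8 arrays. The median of those tested stayed negative, from -0.151 to -0.0713. Their lowest limma adjusted p was 0.207, with array weights.

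Small differences changed sign without a call. Asns was 0.0325 after normexp, 0.0516 with quantile normalization, 0.0281 scaled on probes above background on all arrays, 0.032 leaving out wild-type replicates 2 and 3, and -0.0835 to 0.0334 without single arrays. Atf4 was -0.153 with flagged spots kept, -0.0523 with array weights, -0.0886 without wild-type replicates 2 and 3, and -0.167 to 0.123 without single arrays. Mthfd2 was 0.0211 with the other scaling, 0.0483 with array weights, and -0.132 to 0.0458 without single arrays. Scaling on probes above background on all arrays moved the median of all genes from -0.015 to 0.0373. Without wild-type replicates 2 and 3, Aldh18a1 was 0.0141 and Pycr3 0.0549.

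Genes called, 138 here, numbered 87 with quantile normalization, 59 without a filter, 89 among genes above background on all 8 arrays, 38 with the slide as a block, 86 without wild-type replicates 2 and 3, and 55 to 148 without single arrays. With array weights 364 passed and 78.6% were higher, against 95.7% here. With the replicate number as a block, which the arrays do not bear out as a pairing, 27 genes passed, 0 members were called and Pycr1 was -0.86; the cause of these shifts was not tested.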
